A study of Mus musculus with 12 samples.

Results

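Genes of the translation initiation factors, of the kinases that phosphorylate eIF2 and of the eIF4E-binding proteins were followed in MC38 cells, a mouse colon adenocarcinoma line, kept with or without lactate. Members were all entries whose symbol begins with Eif and a digit from 1 to 6, without pseudogenes, that reached 1 FPKM in at least 3 of 12 libraries. FPKM is the number of fragments per kilobase of gene model and per 1000000 fragments. Of 53 entries with such a symbol, 50 met this rule, out of 13736 genes that met the same limit on level and 42329 entries in all. Those left out were Eif4e3, Eif4e1b and Eif2c5. The nearest to the limit were Eif4ebp3 inside it, at 0.542 to 2.84 FPKM over the 12 libraries, and Eif4e3 outside it, at 0 to 0.715 FPKM. No entry was found under Eif2s3x or Eif2s3y, the symbols of the gamma subunit of eIF2.

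Initiation brings the initiator tRNA and the start codon of an mRNA together on the small ribosomal subunit. eIF2 carries the tRNA, eIF1 and eIF1A keep the scanning complex open, eIF3 holds the assembly together, and eIF4F (the cap-binding eIF4E, the scaffold eIF4G and the helicase eIF4A) loads the mRNA. Cells adjust this step mainly at eIF2, whose phosphorylation by stress-sensing kinases blocks its exchange factor eIF2B, and at eIF4E, which the eIF4E-binding proteins hold back until mTORC1 phosphorylates them. Both switches act on proteins, and the values here are mRNA levels.

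The cell populations differed in their guide RNA, sgControl or sgHcar1. Hcar1 codes for a lactate receptor on the cell surface. Each population was given PBS, or lactate at 20 mM for 24 hours, which made 4 groups of 3 libraries: sgControl in PBS, sgControl in lactate, sgHcar1 in PBS and sgHcar1 in lactate. The columns of the sgHcar1 groups were identified by elimination, since their letters do not spell the guide. The labels do not say whether a population was a pool or a single clone, nor whether replicate libraries represent separate cultures. The spread behind each p-value may therefore be technical.

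Several features of the whole libraries differed between the groups. The summed FPKM of a library was 322359 to 324562 for sgControl in PBS, 310109 to 317330.3 for sgControl in lactate, 362815 to 367977 for sgHcar1 in PBS and 411996 to 421984 for sgHcar1 in lactate. Read depth is unknown, and steps between low FPKM values put it at 0.746 to 1 of the deepest library, lowest in sgHcar1 cells in lactate (0.746 to 0.793). The correlation of log2 levels was 0.990 to 0.992 within a group and 0.765 to 0.947 between groups. Hcar1 itself was above 0 in 1 of 12 libraries, at 0.0196 FPKM, so the targeted gene gives no check of the guide labels. Of 7 colon epithelium markers with an entry, Epcam and Cdx2 were listed at 0 in every library, and the summed level of the 7 was 2.98 to 5.16 FPKM in sgControl libraries, 44.9 to 48.5 FPKM in sgHcar1 libraries in PBS and 110.3 to 114 FPKM in sgHcar1 libraries in lactate. The sum of 8 fibroblast markers, with Lum and Thy1 at 0 throughout, was 129 to 150.1 FPKM in the other groups and 66.8 to 72.6 FPKM in sgHcar1 libraries in lactate. Leukocyte markers summed to 3.82 to 14.1 FPKM, with Cd3e, Itgam and Adgre1 at 0. Of these lists, 1 of 7 epithelium markers and 1 of 6 leukocyte markers had a mean of at least 1 FPKM in each sgHcar1 group, so those sums rest on 1 gene each, as against 3 or 4 of 8 fibroblast markers. The sums moved with the guide and with lactate, except that the fibroblast sum overlapped between guides in PBS. There it was 143 to 146.5 FPKM with sgControl and 141.3 to 150.1 FPKM with sgHcar1. The part of these sums in the results was not tested. In bulk RNA, fewer cells of a type and less RNA per cell cannot be told apart.

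Lactate moved most initiation factor genes in both populations, as it did most of all genes tested. On the deposited scale most of the members called in sgHcar1 cells rose. Levels are given as FPKM, with a ± sign before the SD over the 3 libraries of a group. Changes are given as differences in log2(FPKM + 1) with a ± sign before the standard error, estimated in limma from groups of 3 libraries, with p-values adjusted by Benjamini and Hochberg over 13736 genes. This scale understates the change of genes at low levels. In sgControl cells 25 of 50 members rose with lactate and 17 fell at an adjusted p under 0.05, where 33.9% of all genes tested rose and 31.9% fell. In sgHcar1 cells 31 rose and 9 fell, against 36.8% and 35.4% of all genes. The median difference over the members was 0.11 in sgControl and 0.30 in sgHcar1 cells, and over all genes it was 0.00 in both. Of 35 members called in both populations, 23 were higher in both, 8 were lower in both and 4 moved in opposite directions. Those 4 were Eif4e, Eif4g2, Eif3i and Eif4a2, and none of the 4 kept both calls in every alternative. The sgHcar1 rise of Eif3i changed sign with other scalings of the libraries, and the sgControl calls of Eif4e, Eif4g2 and Eif4a2 were lost in some settings, as given for each gene. Of the 50 members, 1 in sgControl cells and 6 in sgHcar1 cells differed by at least 1 on the log2 scale, while 7.38% and 15.2% of all genes did. The median size of the difference, without its sign, was 0.34 and 0.43 over the members and 0.31 and 0.41 over all genes.

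The lactate effect, with its sign, was called more positive in sgHcar1 cells for 30 members and more negative for 4. More positive covers a larger rise as well as a smaller fall. Over all genes the difference between the lactate effects was called higher for 30.4% and lower for 28.7%. The median of this difference was 0.24 over the members and 0.01 over all genes. Between guides in PBS, 29 members were higher in sgHcar1 cells and 15 were lower, against 38.2% and 38.4% of all genes. Between guides in lactate, 35 were higher and 10 were lower, against 41.3% and 40.9%. These contrasts share libraries with each other, so their counts are not independent. In all, 29 of 50 members had their highest group mean in sgHcar1 cells in lactate, while 20 had their lowest in sgControl cells in PBS and 17 in sgControl cells in lactate. This order was not counted over all genes, and the summed FPKM of a library was also highest in sgHcar1 cells in lactate.

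The counts of rises and falls depended on how libraries were scaled, among the members and over all genes. With each library brought to a summed FPKM of 1000000, the median over all genes shifted by -0.12 for lactate in sgHcar1 cells, by -0.21 for the difference between the lactate effects, by -0.16 between guides in PBS and by -0.37 between guides in lactate. Members called higher and lower then numbered 26 and 18 for lactate in sgHcar1 cells, 18 and 12 for the difference, 22 and 20 between guides in PBS and 22 and 19 between guides in lactate. For lactate in sgControl cells the member counts were 26 and 15 on that scale, close to the 25 and 17 on the deposited one. Over all genes they were 4994 and 3992 on the summed scale. Quantile normalization gave 27 and 15 members for lactate in sgHcar1 cells, 22 and 9 for the difference and 30 and 17 between guides in lactate. Over all genes it gave 4666 and 5144, 3790 and 4044, and 5776 and 5394 in the same order. Members made up 1.27% ± 0.0105 of the summed FPKM in sgControl cells in PBS, 1.38% ± 0.00404 in sgControl cells in lactate, 1.31% ± 0.00748 in sgHcar1 cells in PBS and 1.41% ± 0.0158 in sgHcar1 cells in lactate (SD, n = 3).

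**Figure D1:**
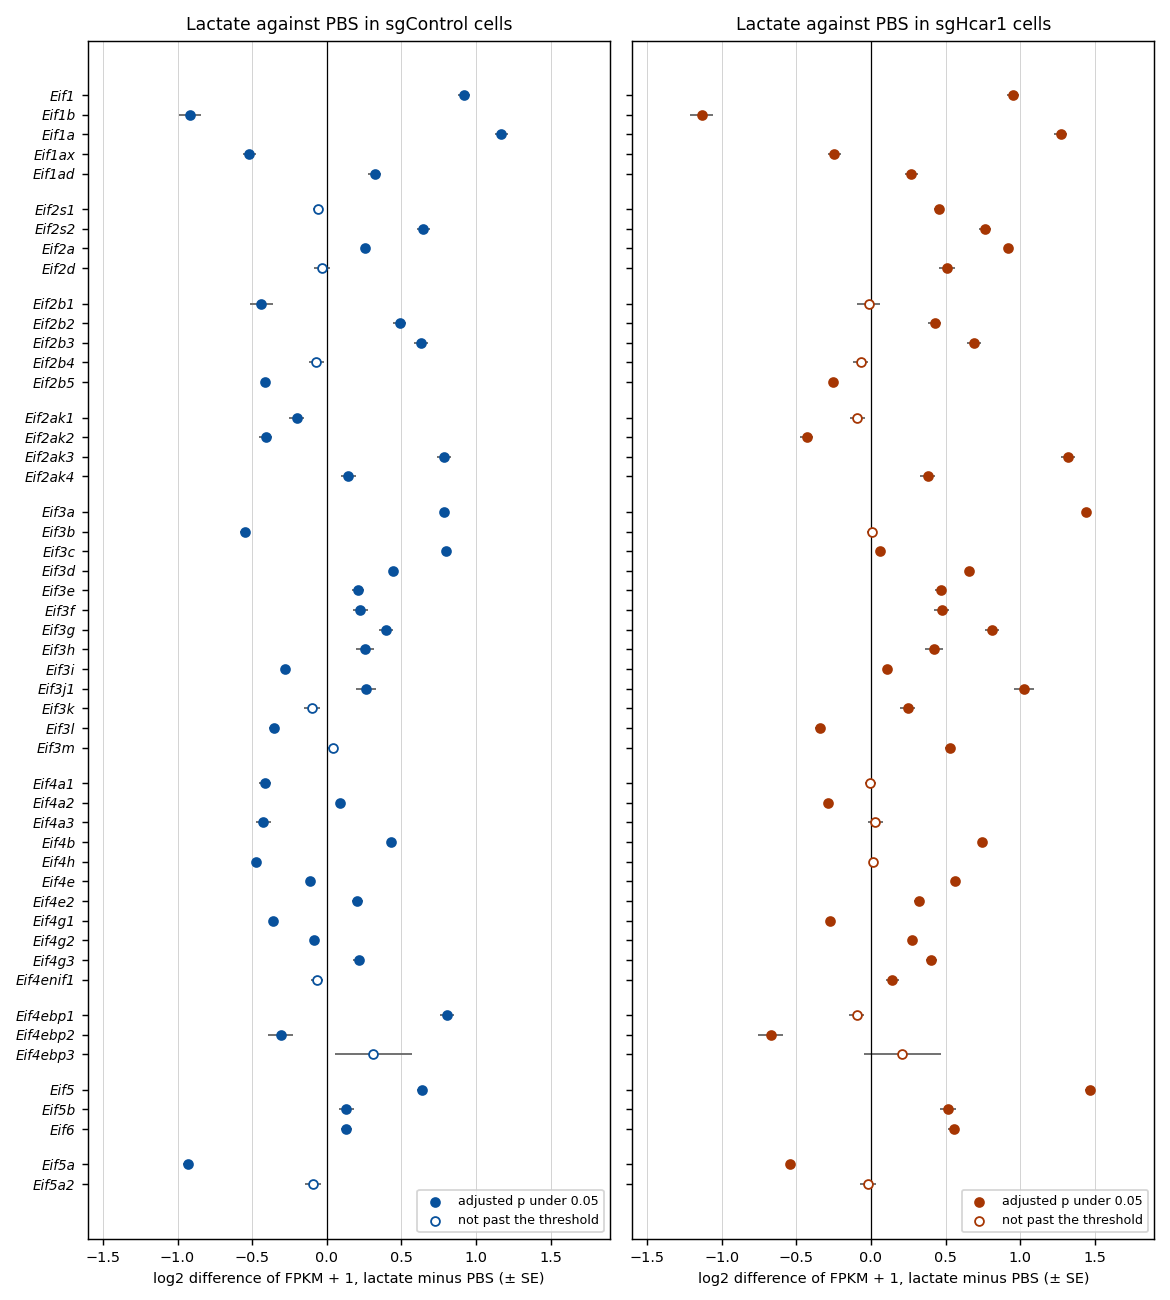
Log2 difference of FPKM + 1 between lactate and PBS (horizontal axis, ± standard error) for the 50 members in sgControl cells (left) and sgHcar1 cells (right), grouped by role from eIF1 at the top to eIF5A at the bottom; filled points passed an adjusted p of 0.05 in limma. In sgHcar1 cells 31 filled points lie above 0 and 9 below it, against 25 and 17 in sgControl cells.

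Levels among the members ranged over more than 2 orders of size. Averaged over all libraries, 18 members were at 100 FPKM or more, 23 at 10 to 100 FPKM and 9 below 10 FPKM. The most abundant were Eif5a (532 FPKM), which helps ribosomes past difficult peptide bonds, Eif4ebp1 (354 FPKM) and Eif3h (349.8 FPKM). All 4 eIF2 kinases were low, with group means of 4.39 to 24.4 FPKM.

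Promoter windows from RefSeq (build GRCm38.p6, 250 bases before to 50 after a start site) were found for 41 of the 50 members. Windows were searched on both strands for CACGTG, the E-box that MYC and related factors bind, which is its own reverse complement, and for TGATGNAA, the composite element of ATF4 and CCAAT-enhancer binding proteins. CACGTG was present for 10 of 41 members (24.4%), against 11.9% of 8567 tested genes with a window and 8.09% of 27025 genes in all. The 10 were Eif1b, Eif3a, Eif3f, Eif3k, Eif4a1, Eif4e, Eif4g1, Eif4h, Eif5a and Eif5a2. TGATGNAA was in 0 of 41 members' windows, in 2.5% of the tested genes' and in 4.51% of all. The windows of 4 holders of CACGTG are shown because lactate moved these genes in different directions: Eif1b and Eif5a fell in both populations, Eif3a rose in both, and Eif4e rose in sgHcar1 cells and was slightly lower with lactate in sgControl cells. Capitals mark CACGTG, and each window is written 5′ to 3′ on the gene's strand.
Eif1b, chr9:120492356-120492655, plus strand, CACGTG from base -24 relative to the start site: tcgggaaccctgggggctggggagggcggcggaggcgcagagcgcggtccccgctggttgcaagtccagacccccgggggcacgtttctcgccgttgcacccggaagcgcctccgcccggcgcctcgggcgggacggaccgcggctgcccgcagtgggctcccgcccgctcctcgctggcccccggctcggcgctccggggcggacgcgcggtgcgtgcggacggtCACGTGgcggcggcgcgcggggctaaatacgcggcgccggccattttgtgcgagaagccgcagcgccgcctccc
Eif3a, chr19:60790644-60790943, minus strand, from base 23: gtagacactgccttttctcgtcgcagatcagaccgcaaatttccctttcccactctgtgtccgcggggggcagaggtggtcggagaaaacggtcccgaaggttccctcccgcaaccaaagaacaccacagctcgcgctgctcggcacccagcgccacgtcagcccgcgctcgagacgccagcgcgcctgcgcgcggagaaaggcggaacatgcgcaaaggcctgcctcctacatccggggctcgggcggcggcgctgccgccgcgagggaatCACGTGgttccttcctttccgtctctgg
Eif4e, chr3:138527018-138527317, plus strand, from bases -228 and -64: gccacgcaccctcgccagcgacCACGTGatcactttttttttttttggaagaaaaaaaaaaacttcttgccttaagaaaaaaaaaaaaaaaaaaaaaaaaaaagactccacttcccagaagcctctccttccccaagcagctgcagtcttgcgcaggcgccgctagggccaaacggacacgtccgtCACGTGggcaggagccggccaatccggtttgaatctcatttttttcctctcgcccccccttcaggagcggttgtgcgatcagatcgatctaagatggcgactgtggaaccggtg
Eif5a, chr11:69921226-69921525, minus strand, 1 of its windows, from base -185: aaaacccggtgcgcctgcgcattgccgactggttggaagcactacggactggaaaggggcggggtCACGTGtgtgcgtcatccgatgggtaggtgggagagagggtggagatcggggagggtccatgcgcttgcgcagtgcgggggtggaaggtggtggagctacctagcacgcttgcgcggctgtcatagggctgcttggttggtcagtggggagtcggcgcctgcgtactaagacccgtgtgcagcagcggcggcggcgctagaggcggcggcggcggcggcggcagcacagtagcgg

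The factors that guide start codon selection split into paralogues that moved in opposite directions. Eif1, which makes the scanning ribosome reject poor start codons, was at 132, 139 and 144 FPKM in sgControl cells in PBS and at 271, 259.5 and 258 FPKM in lactate. With the Hcar1 guide it was at 137, 148 and 143 FPKM in PBS and at 274, 269 and 286 FPKM in lactate. All 6 lactate libraries were above all 6 PBS libraries. Eif1 rose by 0.92 ± 0.04 in sgControl cells (limma adjusted p = 7.46e-09) and by 0.95 ± 0.04 in sgHcar1 cells (3.15e-09), and the difference between these effects did not pass (0.03 ± 0.06). With other scalings that difference was called negative, at -0.20 for a summed FPKM of 1000000 and -0.49 under quantile normalization. Its paralogue Eif1b was at 33.5, 30.0 and 32.6 FPKM in sgControl cells in PBS and at 17.4, 16.6 and 15.5 FPKM in lactate. In sgHcar1 cells Eif1b was at 45.6, 48.6 and 44.8 FPKM in PBS and at 18.4, 20.2 and 23.3 FPKM in lactate. No lactate library reached a PBS library, and Eif1b fell by 0.92 ± 0.08 in sgControl cells (limma adjusted p = 1.12e-06) and by 1.13 ± 0.08 in sgHcar1 cells (1.18e-07). Eif1 therefore made up 81.2% ± 1.31 of the pair's FPKM in sgControl cells in PBS and 94.1% ± 0.201 in lactate (SD, n = 3), and in sgHcar1 cells 75.4% ± 0.611 and 93.1% ± 0.613.

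The eIF1A genes showed the same kind of split. Eif1a was at 31.1, 31.3 and 32.1 FPKM in sgControl cells in PBS and at 71.2, 72.5 and 72.3 FPKM in lactate. The sgHcar1 libraries held it at 49.0, 44.5 and 44.8 FPKM in PBS and at 107, 113 and 119 FPKM in lactate. The 4 groups did not overlap, and Eif1a rose by 1.17 ± 0.04 (limma adjusted p = 1.77e-09) and 1.27 ± 0.04 (4.68e-10), the one member with a rise of at least 1 in both populations. Eif1ax, its copy on the X chromosome, was at 29.8, 32.4 and 32.5 FPKM in sgControl cells in PBS and at 21.7, 21.6 and 21.9 FPKM in lactate. In sgHcar1 cells Eif1ax was at 39.4, 38.8 and 38.2 FPKM in PBS and at 30.6, 32.8 and 34.3 FPKM in lactate. It fell by 0.52 ± 0.04 in sgControl cells (1.26e-06) and by 0.25 ± 0.04 in sgHcar1 cells (0.00036). The share of Eif1a in the pair went from 49.9% ± 1.02 to 76.8% ± 0.22 in sgControl cells and from 54.3% ± 1.05 to 77.6% ± 0.148 in sgHcar1 cells (SD, n = 3). Coding sequences of Eif1 and Eif1b, and of Eif1a and Eif1ax, are closely similar, and how fragments that fit both copies were counted is not given in the sources used here, so the split within each pair is uncertain. Eif1ad, an eIF1A-domain gene, was at 18.2, 18.7 and 17.7 FPKM in sgControl cells in PBS and at 33.7, 31.0 and 33.4 FPKM in sgHcar1 cells in PBS. With lactate it reached 23.7, 23.6 and 21.8 FPKM and 41.7, 39.3 and 38.1 FPKM, and it was higher in sgHcar1 cells by 0.81 ± 0.05 in PBS (limma adjusted p = 2.40e-08).

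**Figure D2:**
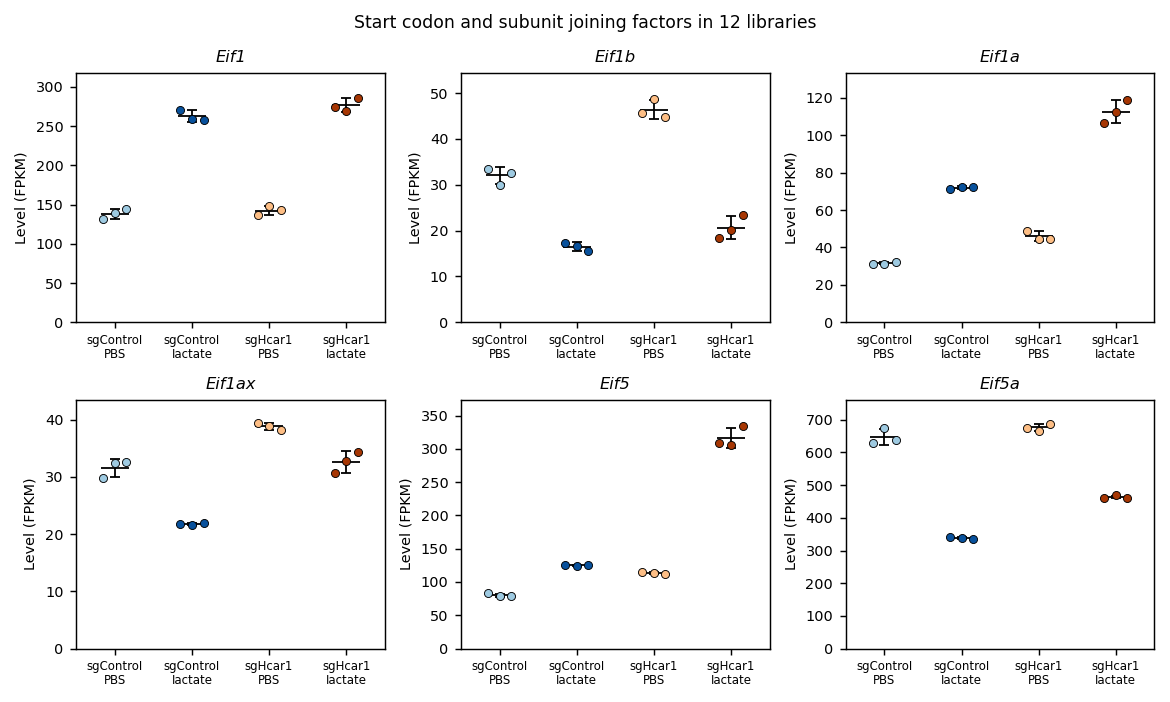
FPKM of Eif1, Eif1b, Eif1a, Eif1ax, Eif5 and Eif5a in 12 libraries (points), with the mean ± SD of each group of 3. Eif1, Eif1a and Eif5 lie higher in lactate than in PBS for both guides, and Eif1b, Eif1ax and Eif5a lie lower.

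Carriers of the initiator tRNA were all higher in sgHcar1 cells, with or without lactate. Eif2s2, the beta subunit of eIF2, was at 9.02, 8.13 and 8.33 FPKM in sgControl cells in PBS and at 13.2, 14.2 and 14.3 FPKM in lactate. Under sgHcar1 it was at 18.5, 18.3 and 17.5 FPKM in PBS and at 31.2, 32.0 and 31.3 FPKM in lactate. The 4 groups were fully separated, and Eif2s2 was higher in sgHcar1 cells by 1.01 ± 0.04 in PBS (limma adjusted p = 1.75e-09) and by 1.13 ± 0.04 in lactate (5.21e-10). Eif2s1, the alpha subunit that the kinases phosphorylate, was at 44.5 ± 1.32 and 42.8 ± 0.059 FPKM in sgControl cells in PBS and lactate (SD, n = 3), a difference that did not pass (-0.06 ± 0.03). In sgHcar1 cells Eif2s1 rose from 56.9 ± 1.70 to 78.5 ± 2.54 FPKM (0.46 ± 0.03, limma adjusted p = 1.86e-07), and the lactate effects differed by 0.51 ± 0.05. Eif2a, which encodes a separate protein able to bind initiator tRNA, was at 17.6, 17.8 and 18.1 FPKM in sgControl cells in PBS and at 20.8, 21.4 and 22.3 FPKM in lactate. In sgHcar1 cells Eif2a was at 22.0, 22.2 and 22.3 FPKM in PBS and at 42.6, 42.2 and 43.8 FPKM in lactate. Its rise was 0.26 ± 0.03 in sgControl cells and 0.92 ± 0.03 in sgHcar1 cells, a difference of 0.66 ± 0.04 (limma adjusted p = 3.06e-07). Eif2d, another tRNA-delivering factor, was not called in sgControl cells (4.52 ± 0.302 FPKM in PBS, 4.39 ± 0.279 FPKM in lactate) and rose in sgHcar1 cells from 6.86 ± 0.114 to 10.2 ± 0.499 FPKM (0.51 ± 0.05).

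The subunits of eIF2B did not move as one. Eif2b2 and Eif2b3, for the beta and gamma subunits, rose with lactate in both populations, by 0.49 ± 0.04 and 0.63 ± 0.05 in sgControl cells and by 0.43 ± 0.04 and 0.69 ± 0.05 in sgHcar1 cells. Eif2b5, for the catalytic epsilon subunit, fell in both, from 43.5 ± 0.543 to 32.4 ± 0.324 FPKM in sgControl cells (-0.41 ± 0.02) and from 30.7 ± 0.436 to 25.6 ± 0.372 FPKM in sgHcar1 cells (-0.25 ± 0.02). Eif2b1, for the regulatory alpha subunit, fell in sgControl cells from 15.8 ± 0.453 to 11.4 ± 1.26 FPKM (-0.44 ± 0.08) and was at 18.9 ± 1.03 and 18.7 ± 1.66 FPKM in sgHcar1 cells, where the change did not pass. Eif2b4, for the delta subunit, did not pass for lactate in either population (-0.07 ± 0.05 in both), was called lower with lactate in sgControl cells under quantile normalization (-0.15) and in sgHcar1 cells at a summed FPKM of 1000000 (-0.25), and was lower in sgHcar1 cells by 0.38 in both treatments (SE 0.05). Between guides, 2 of the 5 subunit genes were higher in sgHcar1 cells and 3 were lower, in PBS (1 and 3 at a summed FPKM of 1000000) and in lactate alike. Of all genes, 38.2% were higher and 38.4% lower in PBS, and 41.3% and 40.9% in lactate.

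Each of the 4 eIF2 kinases senses another stress, and their mRNAs moved differently. Eif2ak3 encodes PERK, the kinase of the endoplasmic reticulum that responds to unfolded proteins. It was at 6.41, 6.22 and 6.02 FPKM in sgControl cells in PBS and at 11.6, 11.6 and 11.1 FPKM in lactate. In sgHcar1 cells it was at 4.31, 4.42 and 4.45 FPKM in PBS and at 12.4, 11.7 and 13.4 FPKM in lactate. The lowest group was therefore sgHcar1 in PBS and the highest sgHcar1 in lactate. Eif2ak3 rose by 0.79 ± 0.05 in sgControl cells (limma adjusted p = 6.30e-08) and by 1.32 ± 0.05 in sgHcar1 cells (5.20e-10), and the effects differed by 0.54 ± 0.07 (4.00e-05). In lactate the guides differed by 0.12 ± 0.05, a call that was lost when sgControl lactate replicate 1, 2 or 3 (0.13, 0.13 and 0.09) or sgHcar1 lactate replicate 1 or 3 (0.12 and 0.07) was left out and that turned to -0.28 with libraries at a summed FPKM of 1000000.

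Eif2ak2 encodes PKR, which binds double-stranded RNA and is induced by interferon. It was at 8.92, 8.61 and 9.23 FPKM in sgControl cells in PBS and at 6.33, 6.67 and 6.41 FPKM in lactate. With the Hcar1 guide it was at 25.3, 23.8 and 24.1 FPKM in PBS and at 16.9, 18.5 and 18.2 FPKM in lactate. All 6 sgHcar1 libraries lay above all 6 sgControl libraries. Eif2ak2 was higher in sgHcar1 cells by 1.36 ± 0.04 in PBS (limma adjusted p = 1.28e-10) and by 1.34 ± 0.04 in lactate (1.13e-10), and it fell with lactate by 0.41 ± 0.04 in sgControl and 0.43 ± 0.04 in sgHcar1 cells.

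Eif2ak1 encodes HRI, the kinase tied to heme and to mitochondrial stress. It was at 7.79, 8.18 and 7.36 FPKM in sgControl cells in PBS and at 6.27, 6.88 and 6.75 FPKM in lactate, and it fell there by 0.20 ± 0.05 (limma adjusted p = 0.00405). The sgHcar1 libraries held it at 9.47, 8.76 and 9.64 FPKM in PBS and at 8.91, 8.53 and 8.51 FPKM in lactate, which overlapped, and the change did not pass (-0.09 ± 0.05). It was called lower there at a summed FPKM of 1000000 (-0.28), under quantile normalization (-0.15) and without sgHcar1 PBS replicate 2 (-0.13). Eif2ak4 encodes GCN2, which senses uncharged tRNA. It was at 6.49, 5.71 and 6.38 FPKM in sgControl cells in PBS and at 6.98, 7.37 and 6.49 FPKM in lactate. Under sgHcar1 it was at 6.94, 6.79 and 6.97 FPKM in PBS and at 9.35, 9.26 and 9.27 FPKM in lactate. The sgHcar1 lactate libraries stood above the other 9, and Eif2ak4 rose there by 0.38 ± 0.05 (limma adjusted p = 3.54e-05). In sgControl cells the libraries overlapped, and the call (0.14 ± 0.05, adjusted p = 0.0266) was lost without lactate replicate 1 (0.14) or 2 (0.11) or PBS replicate 2 (0.09). It was also lost under quantile normalization (0.085) and with only the groups compared (0.14). In sgHcar1 against sgControl cells in PBS it was higher by 0.14 ± 0.05, and this call was lost without sgControl PBS replicate 2 (0.09) or sgHcar1 PBS replicate 1 or 3 (0.13 each). That call was also lost with only the groups compared (0.14) and turned to -0.02 at a summed FPKM of 1000000. Between guides in lactate the call of Eif2ak4 was lost at a summed FPKM of 1000000 (0.0089).

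**Figure D3:**
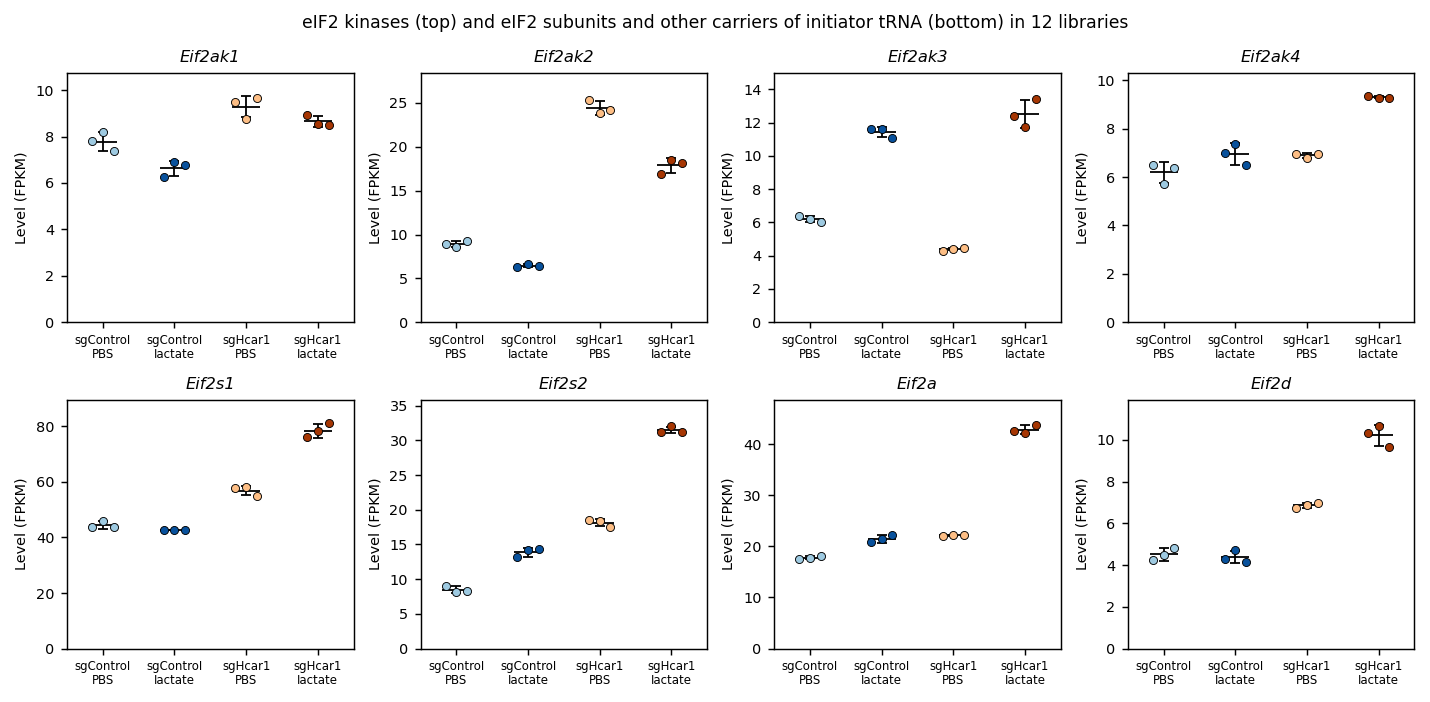
FPKM of the 4 eIF2 kinase genes (top) and of Eif2s1, Eif2s2, Eif2a and Eif2d (bottom) in 12 libraries (points), with the mean ± SD of each group of 3. Eif2ak2 lies at 16.9 to 25.3 FPKM in sgHcar1 libraries and at 6.33 to 9.23 FPKM in sgControl libraries, and Eif2ak3 is highest in the lactate libraries of both guides.

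eIF3 is the largest initiation factor, and most of its 13 measured subunit genes rose with lactate. In sgControl cells 8 rose, 3 fell and 2 did not pass, where 33.9% of all genes rose and 31.9% fell. In sgHcar1 cells 11 rose, 1 fell and 1 did not pass, where 36.8% of all genes rose and 35.4% fell. With libraries at a summed FPKM of 1000000 the eIF3 counts in sgHcar1 cells were 8 and 4. The difference between the lactate effects was called positive for 10 subunits and negative for 1 (all genes 30.4% and 28.7%), or 6 and 2 on the summed scale. Between guides in PBS, 10 were higher and 2 lower in sgHcar1 cells (all genes 38.2% and 38.4%), or 7 and 3 on the summed scale. Between guides in lactate, 12 were higher and 0 lower in limma (all genes 41.3% and 40.9%), or 8 and 3 on the summed scale. At an unadjusted p under 0.05 these last counts were also 12 and 0, and Eif3l was the subunit that did not pass (0.05 ± 0.03). Eif3l was called lower in sgHcar1 cells at a summed FPKM of 1000000 (-0.36) and under quantile normalization (-0.26), and higher without sgControl lactate replicate 3 (0.08).

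Eif3a, the largest subunit, was at 127, 125 and 127 FPKM in sgControl cells in PBS and at 219, 224 and 214 FPKM in lactate. In sgHcar1 cells it was at 138, 135 and 139 FPKM in PBS and at 364, 375 and 385 FPKM in lactate. It rose by 0.79 ± 0.03 in sgControl cells (limma adjusted p = 9.29e-10) and by 1.44 ± 0.03 in sgHcar1 cells (7.07e-12), so its lactate effect was larger there by 0.65 ± 0.04. Eif3c, which forms the core of the complex with Eif3a, took another course. It was at 137, 132 and 134 FPKM in sgControl cells in PBS and at 234, 232 and 239 FPKM in lactate, a rise of 0.80 ± 0.02 (1.67e-10). With the Hcar1 guide it was at 246, 244 and 246 FPKM in PBS and at 254, 256 and 259 FPKM in lactate, a difference of 0.06 ± 0.02. This call was lost without sgHcar1 lactate replicate 3 or sgHcar1 PBS replicate 2 (0.06 each), and it turned to -0.12 at a summed FPKM of 1000000 and under quantile normalization. Eif3c was thus high in 3 of the 4 groups. On the deposited scale it was the one eIF3 gene whose lactate effect was called more negative in sgHcar1 cells (-0.74 ± 0.03, limma adjusted p = 2.29e-08).

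Eif3b, a core scaffold subunit, was at 156, 159.9 and 155 FPKM in sgControl cells in PBS and at 108, 106 and 107 FPKM in lactate. The sgHcar1 libraries held it at 116, 117 and 121 FPKM in PBS and at 115, 124 and 116 FPKM in lactate. It fell by 0.55 ± 0.03 in sgControl cells (limma adjusted p = 5.40e-08) and did not pass in sgHcar1 cells (0.00 ± 0.03), where it was lower in PBS by 0.41 ± 0.03 than in sgControl cells. It was called lower with lactate in sgHcar1 cells at a summed FPKM of 1000000 (-0.18) and under quantile normalization (-0.11). Eif3j1, a loosely bound subunit with a near-identical copy whose reads may be shared, was at 6.16, 7.22 and 5.64 FPKM in sgControl cells in PBS and at 7.92, 8.07 and 7.37 FPKM in lactate. Under sgHcar1 it was at 4.47, 4.45 and 4.64 FPKM in PBS and at 10.2, 10.3 and 10.2 FPKM in lactate. Its lactate effect was larger in sgHcar1 cells by 0.76 ± 0.09 (4.39e-05).

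Other subunits stepped up from group to group. Eif3d, a cap-binding subunit, was at 73.3 ± 1.55, 100.3 ± 1.51, 113 ± 2.13 and 179 ± 2.88 FPKM in sgControl PBS, sgControl lactate, sgHcar1 PBS and sgHcar1 lactate (SD, n = 3). In the same order Eif3e was at 166 ± 9.28, 192 ± 1.72, 278 ± 9.19 and 385 ± 6.36 FPKM, and Eif3h at 233 ± 9.40, 279 ± 13.1, 378 ± 9.66 and 509 ± 48.9 FPKM. All 3 rose with lactate for both guides and were higher in sgHcar1 cells in both treatments, except that Eif3h in lactate lost its call under quantile normalization (0.12). Eif3f and Eif3g also rose for both guides, by 0.22 ± 0.05 and 0.40 ± 0.05 in sgControl cells and by 0.48 ± 0.05 and 0.81 ± 0.05 in sgHcar1 cells. Eif3m did not pass in sgControl cells (0.04 ± 0.03), where it was called higher at a summed FPKM of 1000000 (0.09) and under quantile normalization (0.10), and rose in sgHcar1 cells (0.53 ± 0.03). Eif3k did not pass in sgControl cells (-0.10 ± 0.05, called lower without lactate replicate 3 at -0.15). It rose in sgHcar1 cells (0.25 ± 0.05), and this call was lost at a summed FPKM of 1000000 (0.06) and under quantile normalization (0.06). Eif3i fell in sgControl cells (-0.28 ± 0.03) and rose in sgHcar1 cells (0.11 ± 0.03), where it turned to -0.08 at a summed FPKM of 1000000 and to -0.0010 under quantile normalization. Eif3l was the subunit that fell in both, by 0.35 ± 0.03 and 0.34 ± 0.03.

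**Figure D4:**
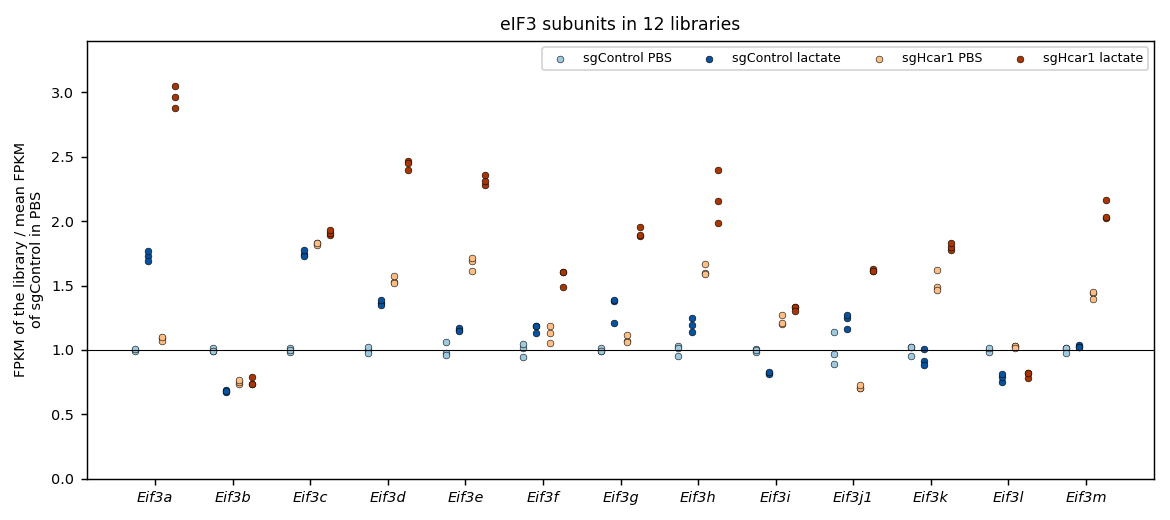
FPKM of 13 eIF3 subunit genes in each of 12 libraries, divided by the gene's mean in sgControl cells in PBS (vertical axis; the line marks 1), with 1 colour per group. Eif3a, Eif3d, Eif3e and Eif3h are highest in sgHcar1 libraries in lactate, while Eif3b lies below the line outside sgControl in PBS and Eif3c above it.

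Genes of the cap-binding complex, and those grouped with them, moved in both directions. Besides eIF4F and its helicase partners, this group of 11 held Eif4a3, Eif4e2, Eif4enif1 and Eif4g2, described below. With lactate in sgControl cells 4 rose, 6 fell and 1 did not pass, where 33.9% of all genes rose and 31.9% fell. In sgHcar1 cells 6 rose, 2 fell and 3 did not pass, where 36.8% of all genes rose and 35.4% fell. At a summed FPKM of 1000000 the group's counts in sgHcar1 cells were 5 and 5. Eif4e, the cap-binding protein, was at 25.9, 26.5 and 24.7 FPKM in sgControl cells in PBS and at 23.4, 24.0 and 23.7 FPKM in lactate. In sgHcar1 cells it was at 34.8, 35.3 and 34.1 FPKM in PBS and at 51.0, 53.2 and 51.4 FPKM in lactate. The sgControl groups lay close together, and Eif4e fell there by 0.11 ± 0.03 (limma adjusted p = 0.00748), a call lost at a summed FPKM of 1000000 (-0.07). It rose in sgHcar1 cells by 0.56 ± 0.03 (1.71e-08), and the effects differed by 0.67 ± 0.04 (3.48e-07). In lactate, Eif4e was higher in sgHcar1 cells by 1.10 ± 0.03 (3.77e-11). Eif4e2, a cap-binding relative that represses translation, rose with lactate in both populations by 0.20 ± 0.04 and 0.32 ± 0.04.

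The helicase genes parted in a similar way. Eif4a1, the main helicase of eIF4F, fell with lactate in sgControl cells from 256 ± 11.8 to 192 ± 6.65 FPKM (-0.41 ± 0.04) and was at 216 ± 5.55 and 215 ± 6.54 FPKM in sgHcar1 cells, where the change did not pass on the deposited scale (-0.00 ± 0.04) and was called lower at a summed FPKM of 1000000 (-0.19) and under quantile normalization (-0.18). Eif4a2 was at 75.7, 76.9 and 73.8 FPKM in sgControl cells in PBS and at 81.0, 81.2 and 79.3 FPKM in lactate. With the Hcar1 guide it was at 59.9, 58.0 and 57.2 FPKM in PBS and at 45.7, 49.4 and 48.0 FPKM in lactate. Eif4a2 thus fell in sgHcar1 cells (-0.29 ± 0.03), and its lactate effects differed by -0.38 ± 0.05 (limma adjusted p = 3.55e-05). Its call in sgControl cells (0.09 ± 0.03) was lost without lactate replicate 1 or 2 (0.09 each) or PBS replicate 1 or 3 (0.09 and 0.08). Eif4a1 held 77.2% ± 1.16 of the FPKM of the pair in sgControl cells in PBS and 70.4% ± 0.68 in lactate, against 78.7% ± 0.671 and 81.9% ± 0.236 in sgHcar1 cells (SD, n = 3). Eif4a3, a helicase of the exon junction complex, was at 66.9, 67.0 and 64.5 FPKM in sgControl cells in PBS and at 39.0, 38.4 and 42.9 FPKM in sgHcar1 cells in PBS. With lactate it was at 49.4, 46.3 and 51.4 FPKM and at 40.2, 39.9 and 42.6 FPKM, so it fell in sgControl cells (-0.43 ± 0.05, limma adjusted p = 1.53e-05), did not pass in sgHcar1 cells (0.03 ± 0.05, called lower at -0.15 for a summed FPKM of 1000000), and had effects that differed by 0.46 ± 0.07.

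Eif4b and Eif4h both encode cofactors of the helicase. Eif4b was at 215, 220.3 and 212 FPKM in sgControl cells in PBS and at 292, 292 and 291 FPKM in lactate. The sgHcar1 libraries held it at 139.5, 136 and 138 FPKM in PBS and at 231, 231 and 231 FPKM in lactate. Every group was separate, Eif4b rose for both guides (0.43 ± 0.02 and 0.74 ± 0.02), and it was lower in sgHcar1 cells in PBS by 0.64 ± 0.02 (limma adjusted p = 2.52e-10). Eif4h fell with lactate in sgControl cells from 84.4 ± 0.92 to 60.5 ± 1.00 FPKM and was at 106 ± 2.51 and 107 ± 0.743 FPKM in sgHcar1 cells, with lactate effects that differed by 0.49 ± 0.03. Eif4h was called lower with lactate in sgHcar1 cells at a summed FPKM of 1000000 (-0.17) and under quantile normalization (-0.14), though not on the deposited scale (0.01 ± 0.02).

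Among the scaffolds, Eif4g3 was at 20.0, 19.4 and 19.2 FPKM in sgControl cells in PBS and at 23.5, 22.6 and 22.5 FPKM in lactate. Under sgHcar1 it was at 9.44, 9.99 and 10.4 FPKM in PBS and at 13.1, 13.6 and 13.7 FPKM in lactate. All sgHcar1 libraries were below all sgControl libraries, by 0.91 ± 0.04 in PBS (limma adjusted p = 1.38e-09) and 0.72 ± 0.04 in lactate (7.62e-09). Eif4g1, the main scaffold, fell with lactate in both populations, by 0.36 ± 0.03 and 0.27 ± 0.03. Eif4g2, which lacks the part that binds eIF4E and serves cap-independent initiation, was at 136 ± 3.24 and 128 ± 1.09 FPKM in sgControl cells and rose in sgHcar1 cells from 176 ± 2.11 to 213 ± 6.96 FPKM (0.28 ± 0.03). Its call in sgControl cells (-0.08 ± 0.03) was lost without lactate replicate 1 or 3 or PBS replicate 1 or 2 (-0.08 to -0.07), and it came to -0.04 at a summed FPKM of 1000000 and to -0.0024 under quantile normalization, neither called. Of the FPKM of the 3 scaffold genes, Eif4g2 held 52.1% ± 0.497 in sgControl cells in PBS and 64.5% ± 0.529 in sgHcar1 cells in lactate, while Eif4g1 went from 40.4% ± 0.44 to 31.4% ± 0.498 (SD, n = 3). Eif4enif1, which shuttles eIF4E into the nucleus, had group means of 13.0 to 14.5 FPKM. It was called higher with lactate in sgHcar1 cells, and its lactate effects differed by 0.21. These turned to -0.030 and -0.0040 at a summed FPKM of 1000000, and the sgHcar1 rise lost its call under quantile normalization (0.058). In PBS it was called lower in sgHcar1 cells, a call lost under quantile normalization (-0.068) and without sgControl PBS replicate 1 or 3 or sgHcar1 PBS replicate 1.

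Among all 50 members, the lactate effects of the guides lay furthest apart for an eIF4E-binding protein. Eif4ebp1, the most abundant of them and a known ATF4 target, was at 234, 224 and 236 FPKM in sgControl cells in PBS and at 399.9, 383 and 436 FPKM in lactate. In sgHcar1 cells it was at 409.9, 413 and 383 FPKM in PBS and at 384, 376 and 367 FPKM in lactate. Only sgControl in PBS stood apart, while the other 3 groups overlapped. Eif4ebp1 rose with lactate by 0.81 ± 0.05 in sgControl cells (limma adjusted p = 7.01e-08) and did not pass in sgHcar1 cells (-0.10 ± 0.05), a difference of -0.90 ± 0.07 (1.16e-06). Its change in sgHcar1 cells was called lower at a summed FPKM of 1000000 (-0.28), under quantile normalization (-0.21), and without sgControl lactate replicate 3 (-0.10) or sgHcar1 PBS replicate 3 (-0.13). It was higher in sgHcar1 cells in PBS by 0.79 ± 0.05 (3.89e-08). Relative to Eif4e, the FPKM of Eif4ebp1 was 9.01 ± 0.543 in sgControl cells in PBS, 17.1 ± 1.23 in sgControl cells in lactate, 11.6 ± 0.301 in sgHcar1 cells in PBS and 7.25 ± 0.254 in sgHcar1 cells in lactate (SD, n = 3). The ratio thus moved up with lactate in sgControl libraries and down in sgHcar1 libraries, with no overlap between groups.

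Eif4ebp2 was at 28.2, 26.6 and 27.5 FPKM in sgControl cells in PBS and at 22.7, 20.2 and 23.2 FPKM in lactate. With the Hcar1 guide it was at 18.8, 22.8 and 22.0 FPKM in PBS and at 12.1, 14.6 and 12.1 FPKM in lactate. It fell in both, by 0.31 ± 0.08 and 0.67 ± 0.08 (limma adjusted p = 0.00758 and 2.36e-05). The difference between these effects (-0.36 ± 0.12) lost its call without sgControl lactate replicate 3 (-0.33), sgHcar1 lactate replicate 1 or 3 (-0.32 each) or sgHcar1 PBS replicate 2 (-0.31). Eif4ebp3 was barely expressed, at 0.542, 0.769 and 0.833 FPKM in sgControl cells in PBS and at 1.23, 1.45 and 0.753 FPKM in lactate. The sgHcar1 libraries held it at 1.99, 1.58 and 0.812 FPKM in PBS and at 2.02, 0.859 and 2.84 FPKM in lactate, and no contrast passed. Between guides in PBS it was called higher in sgHcar1 cells under quantile normalization (0.65), with only the groups compared (0.49), and without sgHcar1 PBS replicate 3 (0.70) or sgHcar1 lactate replicate 2 (0.49). Between guides in lactate it was called higher without sgHcar1 lactate replicate 2 (0.68).

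**Figure D5:**
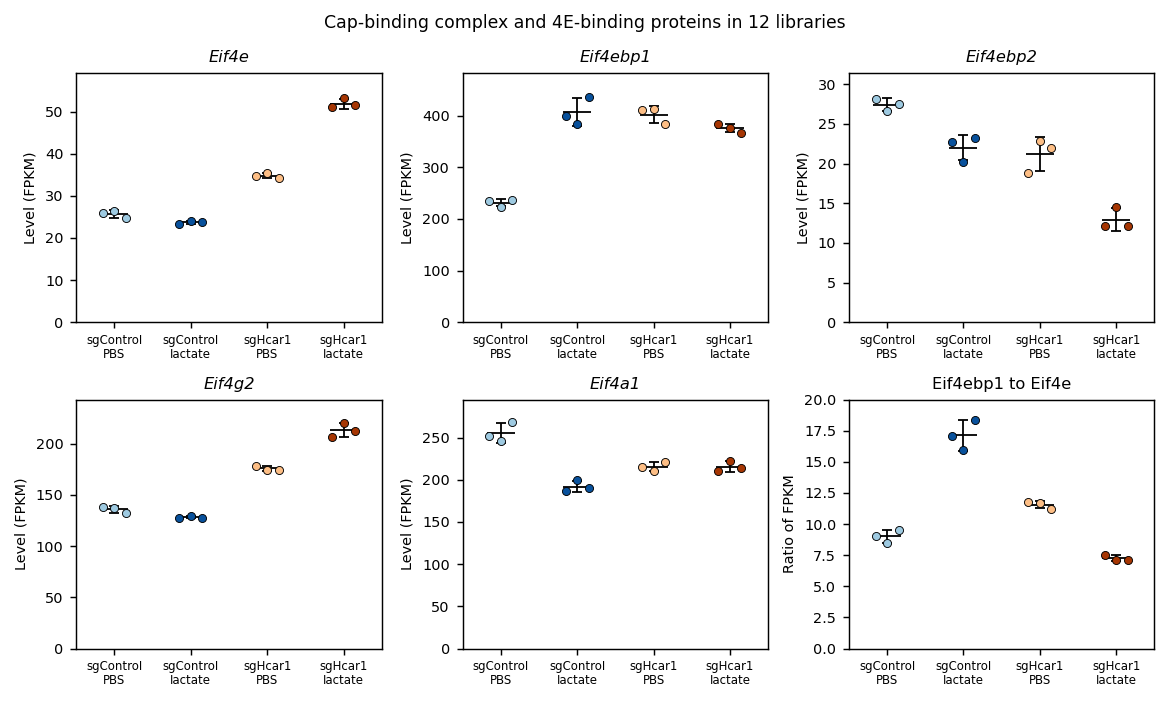
FPKM of Eif4e, Eif4ebp1, Eif4ebp2, Eif4g2 and Eif4a1, and the ratio of Eif4ebp1 to Eif4e, in 12 libraries (points), with the mean ± SD of each group of 3. The ratio is highest in sgControl libraries in lactate (mean 17.1) and lowest in sgHcar1 libraries in lactate (mean 7.25).

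The 3 genes of subunit joining and eIF6 were called higher with lactate for both guides, though the Eif5b call in sgControl cells was lost in many settings. The rise was larger in sgHcar1 cells by the test of the difference, a call that Eif5b lost at a summed FPKM of 1000000 (0.17). Eif5, which makes eIF2 hydrolyse its GTP once a start codon is found, was at 82.7, 78.8 and 78.8 FPKM in sgControl cells in PBS and at 126, 124 and 126 FPKM in lactate. Under sgHcar1 it was at 114, 114 and 113 FPKM in PBS and at 309, 305 and 334 FPKM in lactate. Eif5 rose by 0.64 ± 0.03 (limma adjusted p = 2.67e-08) and by 1.47 ± 0.03 (2.51e-11), which was the largest rise of any member in sgHcar1 cells, and the effects differed by 0.83 ± 0.05 (1.89e-07). Eif5b, the GTPase that joins the subunits, rose in sgHcar1 cells from 16.3 ± 0.276 to 23.8 ± 1.33 FPKM (0.51 ± 0.05). In sgControl cells its libraries overlapped, and the call (0.13 ± 0.05) was lost without lactate replicate 1 or 2 (0.12 each), PBS replicate 1 (0.13) or 3 (0.08), sgHcar1 lactate replicate 2 (0.13) or any sgHcar1 PBS replicate (0.13), and with a replicate block (0.13). The call was also lost under median-ratio scaling (0.12) and quantile normalization (0.06). No filter on low values, no variance trend and only the groups compared ended it too (0.13 each). Eif6, which keeps free large subunits from joining, rose by 0.13 ± 0.04 in sgControl and by 0.55 ± 0.04 in sgHcar1 cells, and was lower in sgHcar1 cells in PBS (76.4 ± 2.78 against 115 ± 4.92 FPKM).

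The eIF5A genes differed by guide and by treatment. Eif5a was at 629, 675 and 639 FPKM in sgControl cells in PBS and at 341, 339 and 336 FPKM in lactate. In sgHcar1 cells it was at 676, 665 and 688 FPKM in PBS and at 462, 469 and 461 FPKM in lactate. The PBS groups overlapped and both lactate groups were lower, by 0.93 ± 0.03 in sgControl cells (limma adjusted p = 5.09e-10), the largest fall of any member there, and by 0.54 ± 0.03 in sgHcar1 cells (2.05e-08). Eif5a2, its tissue-restricted paralogue (chr3:28781032-28798846, RefSeq GRCm38.p6), was at 4.76, 5.02 and 4.83 FPKM in sgControl cells in PBS and at 4.76, 4.53 and 4.24 FPKM in lactate. With the Hcar1 guide it was at 0.0356, 0.0481 and 0.0111 FPKM in PBS and at 0, 0 and 0.0558 FPKM in lactate. Every sgHcar1 library was near 0. Eif5a2 reached 1 FPKM in sgControl libraries alone and is a member through them, so its difference between guides is given as a description with no test, although it is 1 of the members counted as lower in sgHcar1 cells in PBS and in lactate. Its lactate effects did not pass in limma (-0.09 ± 0.06 in sgControl cells). On the same stretch of chromosome 3, the next gene, Rpl22l1, was at 6.54 to 13.6 FPKM in sgControl libraries and at 33.7 to 47.8 FPKM in sgHcar1 libraries, and Slc2a2, Tnik and Gm1527 were at most at 0.0297 FPKM. Below the limit on level, Eif4e3 was at 0.328 to 0.715 FPKM in sgControl libraries and listed at 0 in all 6 sgHcar1 libraries.

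Other translation genes were read from lists of named genes. Over all genes tested, 33.9% rose and 31.9% fell with lactate in sgControl cells, and 36.8% rose and 35.4% fell in sgHcar1 cells. Of 10 elongation genes, 4 rose and 5 fell with lactate in each population, and these were not all the same genes. Eef1g, a subunit of elongation factor 1, was at 178 ± 3.5 and 156 ± 18.2 FPKM in sgControl cells, where its call (-0.19 ± 0.07) was lost without lactate replicate 2 (-0.12) or 3 (-0.18) or PBS replicate 1 (-0.18) or 3 (-0.20). In sgHcar1 cells Eef1g rose from 237 ± 8.21 to 319 ± 15.3 FPKM (0.43 ± 0.07). Eef2k, the kinase that inhibits elongation factor 2, was lower in sgHcar1 cells, at 2.11 ± 0.214 against 7.84 ± 0.256 FPKM in PBS (-1.51 ± 0.07, limma adjusted p = 2.29e-09). A list of 10 genes for termination and recycling also held Mtif2 and Mtif3, which encode mitochondrial initiation factors. Of these 10, 4 rose and 1 fell in sgControl cells and 6 rose and 0 fell in sgHcar1 cells in limma (7 and 0 at an unadjusted p under 0.05, 6 and 1 at a summed FPKM of 1000000). Hbs1l, a ribosome rescue factor, rose in sgHcar1 cells from 19.5 ± 0.144 to 45.9 ± 0.393 FPKM (1.19 ± 0.04, 3.63e-10). Of 19 initiation partners outside the name rule, 5 rose and 5 fell in sgControl cells and 11 rose and 2 fell in sgHcar1 cells. At a summed FPKM of 1000000 these were 5 and 3, and 9 and 7. Pdcd4, an inhibitor of the eIF4A helicase, rose in sgControl cells from 7.17 ± 0.624 to 14.5 ± 0.982 FPKM (0.93 ± 0.08, 1.34e-06). Mcts2, a retrocopy of the start-site factor gene Mcts1 whose reads may be shared with it, was at 13.3 ± 0.337 and 13.9 ± 1.28 FPKM in sgControl cells and rose in sgHcar1 cells from 5.19 ± 0.367 to 36.3 ± 1.31 FPKM (2.59 ± 0.06, 3.44e-11).

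Genes of regulators of the eIF4E and eIF2 switches were read in the same way, beside the same shares of all genes. Of 15 genes of mTORC1, the MNK kinases and S6 kinase, 6 rose and 5 fell in sgControl cells and 7 rose and 5 fell in sgHcar1 cells, the latter 6 and 7 at a summed FPKM of 1000000. Mknk1, whose kinase phosphorylates eIF4E, rose from 5.86 ± 0.22 to 15.5 ± 0.843 FPKM in sgControl cells and from 8.76 ± 0.361 to 24.9 ± 0.389 FPKM in sgHcar1 cells (1.41 ± 0.04, limma adjusted p = 2.11e-10). Sesn2, an inhibitor of mTORC1 that is also on the ATF4 list, was at 2.94 ± 0.287 FPKM in sgControl cells in PBS and at 19.2 ± 1.02 FPKM in lactate, and at 28.9 ± 1.78 and 46.6 ± 4.67 FPKM in sgHcar1 cells. Of 15 genes of the eIF2 phosphatase and the regulators of the kinases, 8 rose and 4 fell in sgControl cells and 10 rose and 3 fell in sgHcar1 cells, the latter 7 and 5 at a summed FPKM of 1000000. Ppp1r15a, the phosphatase subunit that reverses eIF2 phosphorylation, reached 147 ± 2.25 FPKM with sgControl and 337 ± 18.8 FPKM with sgHcar1 in lactate, with lactate effects of 3.68 ± 0.04 and 3.76 ± 0.04. Of 12 genes read as output of eIF2 phosphorylation through ATF4, 11 rose and 1 fell in sgControl cells and 10 rose and 1 fell in sgHcar1 cells. The difference between the lactate effects was called negative for 10 and positive for 0 in limma, against 28.7% and 30.4% of all genes. These counts were the same at an unadjusted p under 0.05. That difference was also negative for Eif4ebp1, and it was called positive for 30 of the 50 members. Between guides in PBS, 11 of the 12 ATF4 genes were already higher in sgHcar1 cells and 1 was lower, against 38.2% and 38.4% of all genes. Between guides in lactate, 7 were higher and 3 were lower, against 41.3% and 40.9% of all genes. The largest called rises with lactate in this list were those of Trib3 in sgControl cells (4.61 ± 0.08) and Ddit3 in sgHcar1 cells (2.54 ± 0.06). Atf3 lay furthest below 0 for the difference between the lactate effects (-4.18) and between guides in lactate (-5.94). Its lactate effect in sgHcar1 cells was not called in any alternative.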

How the data were processed

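RNA was sequenced from 12 MC38 libraries; per the labels, TruSeq libraries were made from total RNA. The authors deposited FPKM, per the file headers, for genes of the C57BL/6NJ annotation; HISAT2 2.0.5 and featureCounts 1.5.0-p3 are named in the submitters' processing notes, as is build GRCm38. Strand and multi-mapping settings are not given in the sources used here. Without counts, no count test was run: log2(FPKM + 1) of the 13736 genes that reached 1 FPKM in 3 or more libraries was fitted in limma 3.58.1 (R 4.3.3) with 1 mean per group, no replicate block, a variance trend, two-sided tests and Benjamini-Hochberg adjustment per contrast. The fit was checked on simulated data. Members, lists and the naming rule were chosen with earlier results of these data known. The rule gives all libraries for the eIF2 kinases, the eIF4E-binding proteins and the 4 largest changes each way per contrast without overlap, and up to 4 genes of each other list. Alternatives were other scalings, pseudocount, filters, no trend, a replicate block, only the groups compared, and leaving out each library. Figures used Python 3.11.15 and matplotlib 3.10.9.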

Additional observations from a re-analysis of the deposited data

Results flagged for a closer look

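For 34 of 50 members the lactate effect differed between the guides by the test of the difference itself in limma, at an adjusted p under 0.05 over 13736 genes. Over all genes the same test called 30.4% higher and 28.7% lower. Values are the log2 effect in sgHcar1 cells minus that in sgControl cells. The effect was more positive in sgHcar1 cells by at least 0.5 for Eif5 (0.83), Eif3j1 (0.76), Eif4e (0.67), Eif2a (0.66), Eif3a (0.65), Eif3b (0.55), Eif2d (0.54), Eif2ak3 (0.54) and Eif2s1 (0.51). It was more positive by less than 0.5 for Eif3m (0.49), Eif4h (0.49), Eif4a3 (0.46), Eif2b1 (0.42), Eif6 (0.42), Eif3g (0.41), Eif4a1 (0.41), Eif5a (0.39), Eif3i (0.39), Eif5b (0.38), Eif4g2 (0.36), Eif3k (0.35) and Eif4b (0.31). The smallest positive differences were those of Eif1ax (0.27), Eif3e (0.26), Eif3f (0.25), Eif2ak4 (0.24), Eif4enif1 (0.21), Eif3d (0.21), Eif4g3 (0.19) and Eif2b5 (0.16). It was more negative for Eif4ebp1 (-0.90), Eif3c (-0.74), Eif4a2 (-0.38) and Eif4ebp2 (-0.36). Several of these calls depended on the scaling of libraries. At a summed FPKM of 1000000 the call was lost for Eif1ax (0.051), Eif2ak4 (0.031), Eif2b1 (0.22), Eif3e (0.025), Eif3f (0.022), Eif3k (0.12), Eif4b (0.079) and Eif5b (0.17). Under quantile normalization it was lost for Eif2b5 (0.038), Eif3d (0.027), Eif3f (0.041), Eif3k (0.14), Eif4g2 (0.11) and Eif5a (0.060). The differences of Eif3d, Eif4g3, Eif2b5 and Eif4enif1 changed sign at a summed FPKM of 1000000, and those of Eif4b and Eif3e under quantile normalization. That of Eif4ebp2 lost its call when sgControl lactate replicate 3, sgHcar1 lactate replicate 1 or 3, or sgHcar1 PBS replicate 2 was left out (-0.33 to -0.31). Groups of 3 libraries are too small for a test of single outlying libraries.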

How the results depend on the processing

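Counts of members called moved by more than 1.5 times only with the scaling of libraries. The counts over all genes on those scales are given above. With a summed FPKM of 1000000 per library, 18 members were lower with lactate in sgHcar1 cells (9 on the deposited scale), 18 were higher and 12 lower for the difference between the lactate effects (30 and 4), and 22 were higher and 19 lower between guides in lactate (35 and 10). With quantile normalization, 15 were lower with lactate in sgHcar1 cells, 9 lower for the difference and 17 lower between guides in lactate. Among values called on the deposited scale, log2 differences that changed sign at a summed FPKM of 1000000 were, for lactate in sgHcar1 cells, Eif3c -0.12, Eif3i -0.077 and Eif4enif1 -0.030. For the difference between the lactate effects they were Eif3d -0.023, Eif4g3 -0.0235, Eif2b5 -0.067 and Eif4enif1 -0.0040. Between guides in PBS they were Eif3a -0.0587, Eif3f -0.0135, Eif3g -0.065, Eif2ak4 -0.022 and, outside the members, Etf1 -0.0048. Between guides in lactate they were Eif4a1 -0.25, Eif3c -0.28, Eif4g1 -0.0698, Eif3b -0.27, Eif4e2 -0.20, Eif2ak3 -0.28, Eif2ak1 -0.0274, Eif3j1 -0.0134, Eif1b -0.0906 and, outside the members, Abcf3 -0.15. With quantile normalization they were Eif3c -0.12 and Eif3i -0.0010 for lactate in sgHcar1 cells, Eif4b -0.0912 and Eif3e -0.0107 for the difference, Eif3g -0.0085 between guides in PBS, and Eif4a1 -0.25, Eif5a -0.29, Eif3c -0.43 and Eif3b -0.14 between guides in lactate. Of 45 values of members not called on the deposited scale, 25 were called at a summed FPKM of 1000000, 14 of them with the other sign, and 21 under quantile normalization, 10 of them with the other sign. The cause of these changes was not tested. Over 3000 values of members and contrasts with 1 library left out, 47 called values lost their call and 0 called values changed sign. Replicate numbers did not pair the libraries (correlation of same-numbered deviations -0.0407 to 0.085 over 12 pairs, none above 0.1, and 3 of 12 best with their own number). With a replicate block, 24 members rose and 17 fell with lactate in sgControl cells and 31 rose and 9 fell in sgHcar1 cells. The block lost 2 calls of members, Eif2ak3 between guides in lactate (0.12) and Eif5b with lactate in sgControl cells (0.13). FPKM without counts leaves the error of low members unknown.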
